A study of Mus musculus with 4 samples.

Results

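Protein phosphatase 2A (PP2A) is described here through 10 subunit genes, taken by name: the catalytic subunits Ppp2ca and Ppp2cb, the scaffold subunits Ppp2r1a and Ppp2r1b, the B55 regulatory subunits Ppp2r2a and Ppp2r2d, and the B56 regulatory subunits Ppp2r5a, Ppp2r5c, Ppp2r5d and Ppp2r5e. Of these 10 genes, 8 are among the 9238 that the deposited gene table or autophagy table names. All cells were MIN6, a mouse insulinoma line of C57BL/6 origin in wide use as a model of the beta cell. They had received a GR expression vector or, as the reference, a control vector, with 10 µg of plasmid per dish and RNA taken after 24 hours. The labels give GR as letters only, taken here to mean the glucocorticoid receptor, and name no promoter or clone. An antibody against N6-methyladenosine (m6A), a methyl mark on adenosines of RNA, gave 1 immunoprecipitated library per arm, set beside 1 input library, 4 libraries in all. The deposited values compare the arms and give none for a single library, so the depth is unknown and no difference has a replicate check or a test.

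PP2A is a serine/threonine phosphatase that works as a complex of a catalytic subunit, a scaffold that holds it, and a regulatory B subunit that chooses the substrate and the place in the cell. B55 subunits direct it to, among others, substrates of mitotic kinases and the protein tau, and B56 subunits to centromeres and to proteins of growth and Wnt signalling. PP2A counteracts kinases such as Akt and AMPK and, in autophagy, acts on the kinase ULK1, a target of mTORC1.

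Folds were deposited only for peaks of autophagy genes, and of the members only the catalytic subunits are among those genes. Whether m6A signal changed in size in the other members cannot be seen. Ppp2ca had a peak at its start and another at its end, Ppp2cb had a peak at its start, and all 3 were lower in GR cells. The annotated start of Ppp2ca is shown with the promoter before it because a peak begins there, on chr11:52098574-52098853 (GRCm38.p6, plus strand, sequence from RefSeq). The run holds 250 bases before the annotated start and 30 after it, and capitals mark the 19 bases that lie inside the peak, which starts 11 bases after the annotated start.
Ppp2ca: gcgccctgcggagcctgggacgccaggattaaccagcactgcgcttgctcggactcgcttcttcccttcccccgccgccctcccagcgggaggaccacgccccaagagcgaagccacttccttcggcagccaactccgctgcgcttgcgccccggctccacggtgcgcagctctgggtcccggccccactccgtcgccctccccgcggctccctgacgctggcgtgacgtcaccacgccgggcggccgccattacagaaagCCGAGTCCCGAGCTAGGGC
A search of this window, made after the sequence was seen, found the letters TGACGTCA, the full cyclic AMP response element, on chr11:52098798-52098805, ending 19 bases before the annotated start. The element reads the same on both strands and is in 588 of the 32851 RefSeq windows of the same kind (1.79%). Of the members, 7 have such windows (10 in all), and the element is in 3 of the 10, of Ppp2ca and Ppp2r2d. The bases before the start of Ppp2ca were 73.6% G or C, against 53.2% over all windows. The 1.79% is thus not matched for base content. The short core motif of the glucocorticoid receptor, searched as AGAACA or TGTTCT, is in 2 of the 10 windows of the members, both of Ppp2r5d, and in 19.0% of all windows, so its share is near the background. The letters GGAC, a core of the m6A consensus, or GTCC, the same letters on the other strand, are in 87.7% of all windows. They are in 8 of the 10 windows of the members. Of the 300 bases of a window, 250 lie before the annotated start, so most of the letters searched are outside the transcript. The full Ppp2ca window holds 39 bases of the peak, with GGAC in them 0 times. A match is a description of letters and not of binding or methylation.

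Ppp2ca encodes the alpha form of the catalytic subunit, the more abundant one in most tissues, and spans chr11:52098824-52122749. In the authors' deposited table, its start peak (52098835 to 52099087, 253 bases) was assigned to the 5′ UTR at its beginning and centre and to exon 1 at its end. Its log2 fold change in the authors' deposited table was -0.95, so that the signal in GR cells was 51.7% of that in control cells, or 1.94-fold lower. Its other peak (52121931 to 52122483, 553 bases) lay in the last exon and ended in the 3′ UTR, 266 bases before the end of the gene. That peak had a log2 fold change of -1.85 in the authors' deposited table, 27.7% of control or 3.60-fold lower. The end of the transcript thus had the lower value by 0.90 on the log2 scale, a 1.86-fold ratio between peaks of the same gene in the same libraries. The normalisation of the fold is not stated, and an unequal fold does not show that either peak was unchanged.

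Ppp2cb encodes the beta form, which differs from the alpha form at few residues, and spans chr8:33599621-33619804. Its single peak (33599626 to 33599922, 297 bases) began 5 bases after the low-coordinate end of the gene, with its beginning and centre in the 5′ UTR and its end in exon 1. The log2 fold change in the authors' deposited table was -0.66, which is 63.4% of control or 1.58-fold lower. The start peak of Ppp2ca was lower than that of Ppp2cb by 0.29 on the log2 scale. Reads from near-identical stretches of the pair could be assigned to either gene, and how such reads were treated is not given in the sources used here. A change of RNA level cannot be told apart from a change of methylation, because the input levels of these genes are not in the files used, nor can fewer cells be told apart from less RNA per cell.

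**Figure D1:**
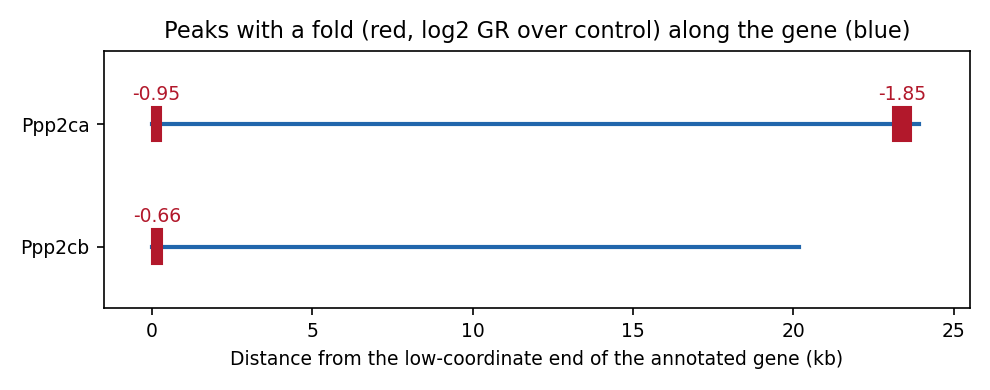
Peaks with a deposited fold along Ppp2ca and Ppp2cb, with distance in kb from the low-coordinate end of each annotated gene on the x axis; red boxes are peaks drawn to scale and the numbers above them are log2 fold changes of GR over control from the authors' deposited table. The Ppp2ca peaks sit at either end of the gene, at -0.95 and -1.85, and the Ppp2cb peak sits at the start, at -0.66.

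Lower signal was shared by every peak of the table. The 3 peaks of the catalytic subunits were among 31 in 22 genes, all lower in GR cells in the authors' deposited table (100%). Their direction (3 of 3) thus sets them apart from nothing. At or below a log2 fold change of -1 lay 1 of the 3, against 83.9% of all peaks. The median of the 3 was -0.95 in the authors' deposited table, against -1.48 for the 28 peaks of the other 20 genes, which ranged from -3.60 to -0.55. The members' peaks hold 2 of the 5 values above -1. With 3 peaks in a pair of genes, this is a description without a test.

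Within their own gene parts both Ppp2ca peaks lay below the median and the Ppp2cb peak above it. The last-exon peak of Ppp2ca was the lowest of the 10 peaks centred in a last exon, whose median was -1.37 in the authors' deposited table, and ranked 7 of 31 from the lowest. The start peaks ranked 27 and 30 of 31. Among the 4 peaks centred in a 5′ UTR, with a median of -0.86, that of Ppp2cb had the mildest fold and that of Ppp2ca was the second lowest. Both start peaks are among these 4, so that median rests partly on their own values. Of the 8 genes with several peaks, Ppp2ca had the second widest spread, 0.90 on the log2 scale, after the 2.26 of Rb1cc1, a scaffold of the ULK1 complex with 3 peaks. The other 6 genes with a pair of peaks had differences from 0.17 for Atg12, part of the ubiquitin-like conjugation system, to 0.72 for Pik3r4, a subunit of the class III phosphatidylinositol 3-kinase. The width of the Ppp2ca last-exon peak, 553 bases, was above the median of 292 over all peaks (130 to 1866), and the part of width in its fold was not tested.

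**Figure D2:**
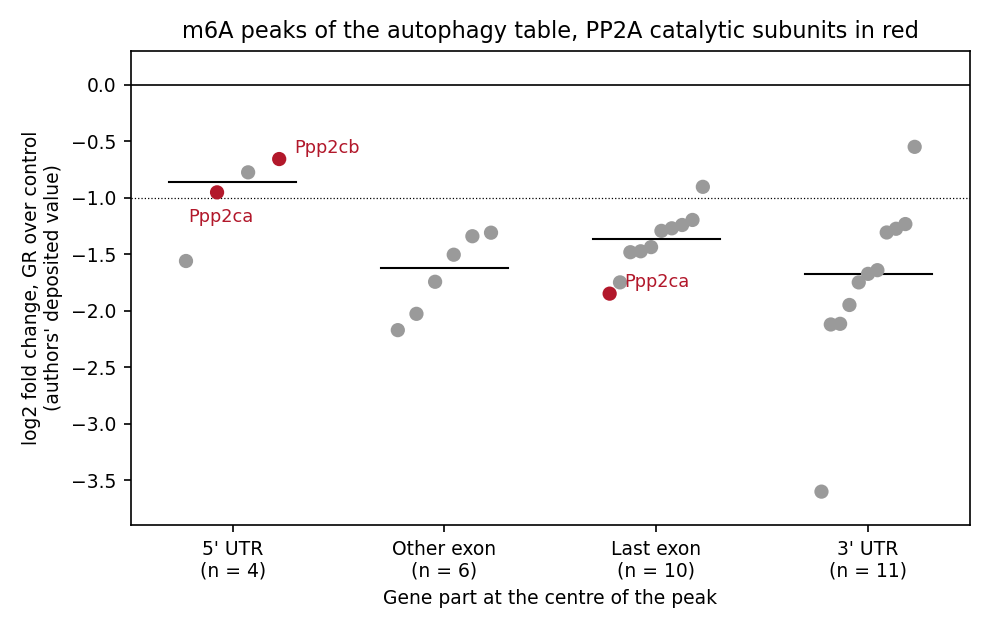
Log2 fold change of GR over control (y axis) for the 31 peaks of the authors' deposited table, by the gene part at the peak centre (x axis); each point is a peak, red points are PP2A catalytic subunits, black bars are medians and the dotted line marks -1. The red points stand at -0.66 and -0.95 in the 5′ UTR column, whose median is -0.86, and at -1.85 in the last exon column, whose median is -1.37.

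A second table names genes related to differential peaks, with no fold, direction or position, and what a line of it stands for is not stated. Both catalytic subunits, which have the deposited folds, were absent from it (0 of 2), whereas 6 of the other 8 members were present. That absence is common among genes with a deposited fold, since 11 of the other 20 genes of the autophagy table were absent as well. Across all 10, 6 had a line (60%, exact 95% interval 26.2% to 87.8%), against 25.2% of the 21900 protein-coding genes of the reference. The members were chosen with these results known, and which genes have enough RNA to give a peak is not stated, so the part of expression in this share was not tested.

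Of the scaffolds, Ppp2r1a, the alpha form that most PP2A complexes contain, had 1 line, and Ppp2r1b, the beta form, had 0. Both B55 members were present. Ppp2r2a, which brings PP2A to mitotic substrates and to tau, had 1 line, and Ppp2r2d, which in complex with PP2A is known from frog eggs to be restrained by Arpp19 and Ensa during mitosis, had 2. Of the B56 members, Ppp2r5c (the gamma form) had 3 lines, the most of any member. Ppp2r5a (alpha) and Ppp2r5e (epsilon) had 1 each, while Ppp2r5d (delta) had 0. The regulatory members thus had 5 of 6 present (83.3%, exact 95% interval 35.9% to 99.6%), beside 25.2% of all protein-coding genes. That share is of the chosen members and not of the classes. Ppp2r2b and Ppp2r2c of the B55 class and Ppp2r5b of the B56 class, which are not members, were absent. The 6 members held 9 lines in all, with a median of 1, which is also the median of all 5526 protein-coding genes with a line. In that background 55.5% of genes had 1 line and 19.4% had 3 or more.

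Ppp2r1b and Ppp2r5d were in neither table, and 8 of the 10 members were in the gene table or the autophagy table. The gene table also prints protein domain names beside each gene. The B56 name stood beside 3 genes and the PR55 name of the B55 class beside 2, all of them members, and the scaffold name beside Ppp2r1a alone. The name of the serine/threonine phosphatase catalytic fold stood beside 3 genes, Ppp1ca, Ppp1cb and Ppp3cb, which belong to protein phosphatase 1 and calcineurin and not to PP2A. Of the beta cell markers 11 of 15 were in the table, among them Ins1, Pdx1 and Mafa, with Ins2, Neurod1, Iapp and Glp1r absent. Of the markers of other islet cells 1 of 4 was present (Gcg, the glucagon gene), and of exocrine and duct markers 0 of 4. Beside the 25.2% of all protein-coding genes, lists of 4 genes this low show nothing about which cells were present.

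Among genes that work with PP2A, the inhibitors had the highest share present. Of 58 genes in 6 related lists, 21 had a line (36.2%, exact 95% interval 24.0% to 49.9%), beside the 25.2% of all protein-coding genes. The inhibitor list had 7 of 8 (87.5%, 47.3% to 99.7%). Mastl, the kinase known as Greatwall, had 3 lines, and its small substrates Arpp19 and Ensa, which block PP2A with B55 once phosphorylated, had 4 and 2. Set and Anp32a, which bind and inhibit PP2A, had 1 and 6 lines, and Bod1 and Bod1l, of a family that restrains PP2A with B56, had 2 and 8. Cip2a, an inhibitor known from cancer cells, was absent. No fold or direction is given for any of these genes.

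The genes that build or chemically modify the PP2A catalytic subunit were all absent. Ptpa (an activator), Lcmt1 and Ppme1 (which add and remove the methyl group at the carboxyl end of the subunit), Igbp1 and Tiprl gave 0 of 5, and that count allows a share of up to 52.2%. The striatin complex, in which PP2A joins kinases of the MST family, had 2 of 14 present (14.3%). Of the other B-type subunits 2 of 6 were present, Ppp2r3a and Ppp2r3c with 1 line each. Absent were Ppp2r2b and Ppp2r2c, also of the B55 class, Ppp2r5b, also of the B56 class, and Ppp2r3d. The PP2A-like phosphatases PP4 and PP6 had 4 of 13 (30.8%), namely the regulatory genes Ppp4r2, Ppp4r3a, Ppp4r3b and Ppp6r3. The catalytic genes Ppp4c and Ppp6c were absent, as were most protein-coding genes, of which 25.2% had a line. Other serine/threonine phosphatases had 6 of 12 (50.0%), which were Ppp1ca, Ppp1cb, Ppp3cb, Ppp3r1, Ppm1a and Ppm1b. The interval of the striatin complex, 1.78% to 42.8%, holds the 25.2% of all protein-coding genes, and that of the inhibitors, 47.3% to 99.7%, does not. The lists are small and were chosen with earlier results known, and no list was tested against another or against that share.

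**Figure D3:**
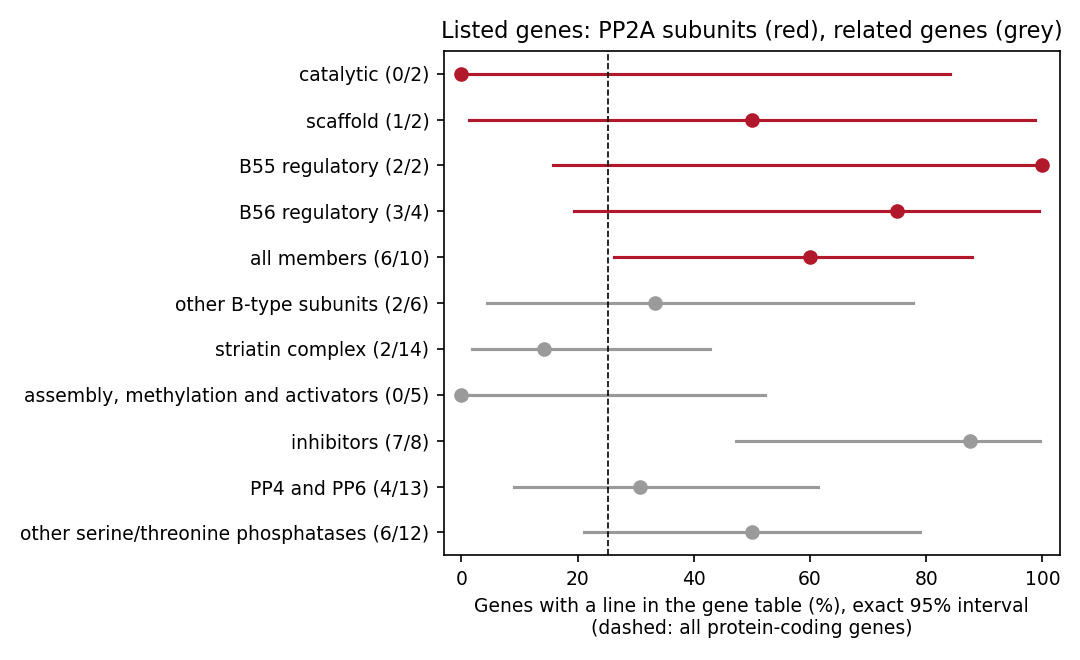
Percent of genes with a line in the gene table (x axis) for the PP2A roles (red) and related lists (grey), with listed and all matched genes in parentheses; points are shares, bars are exact 95% intervals and the dashed line is the 25.2% of all protein-coding genes. The catalytic subunits stand at 0 of 2 and the B55 members at 2 of 2, with intervals that overlap, and the inhibitors stand at 7 of 8.

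The KEGG table shows which pathways carried the listed subunits. A member appeared in 13 of its 290 pathways, and in the authors' deposited table all 13 passed an adjusted p of 0.05, where 66.9% of all pathways did. The catalytic subunits, which have no line in the gene table, were in 0 of them, and that absence is not a separate result. The members in these pathways are scaffold and regulatory genes. A pathway's p is about all its genes and is no test of PP2A.

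The scaffold Ppp2r1a was in all 13 pathways, Ppp2r2a and Ppp2r2d in 10 each, Ppp2r5c and Ppp2r5e in 7 each, and Ppp2r5a in 0. In 6 pathways all 5 of these genes appeared together, with Ppp2r3a and Ppp2r3c beside them. PI3K-Akt signaling, in which PP2A removes phosphate from Akt, ranked 9 with 144 input IDs (120 distinct genes) against 350 in the background, and the authors' deposited table gives it an adjusted p of 7.73e-13. mRNA surveillance, in which PP2A acts on the decay factor Upf1, had 52 input IDs (48 genes) against 96, and the authors' deposited table gives it an adjusted p of 4.56e-08. AMPK signaling, with 48 input IDs (47 genes) against 129, was given an adjusted p of 0.000212 by the authors' deposited table. The remaining 3 were adrenergic signaling in cardiomyocytes, dopaminergic synapse and sphingolipid signaling, for which the authors' deposited table gives adjusted p of 5.91e-06, 1.2e-05 and 1.32e-05.

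Pathways that carried only some of the subunits separated the B55 genes from the B56 genes. Ppp2r1a with both B55 genes and neither B56 gene was in Hippo signaling (71 input IDs, 59 genes, against 154), hepatitis C, Chagas disease and tight junction, for which the authors' deposited table gives adjusted p of 2.24e-08, 8.23e-05, 0.000248 and 0.000567. Ppp2r1a with both B56 genes and neither B55 gene was in oocyte meiosis alone (55 input IDs, 49 genes, against 116), for which the authors' deposited table gives an adjusted p of 4.41e-07. Ppp2r1a stood without other members in TGF-beta signaling (29 against 85) and long-term depression (20 against 61), for which the authors' deposited table gives adjusted p of 0.00899 and 0.0370. Which subunits a pathway can show is set by the KEGG annotation, and the data add that the gene is listed. With the members taken out of the input, 12 of the 13 pathways kept an adjusted p below 0.05, and long-term depression had 0.0565.

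**Figure D4:**
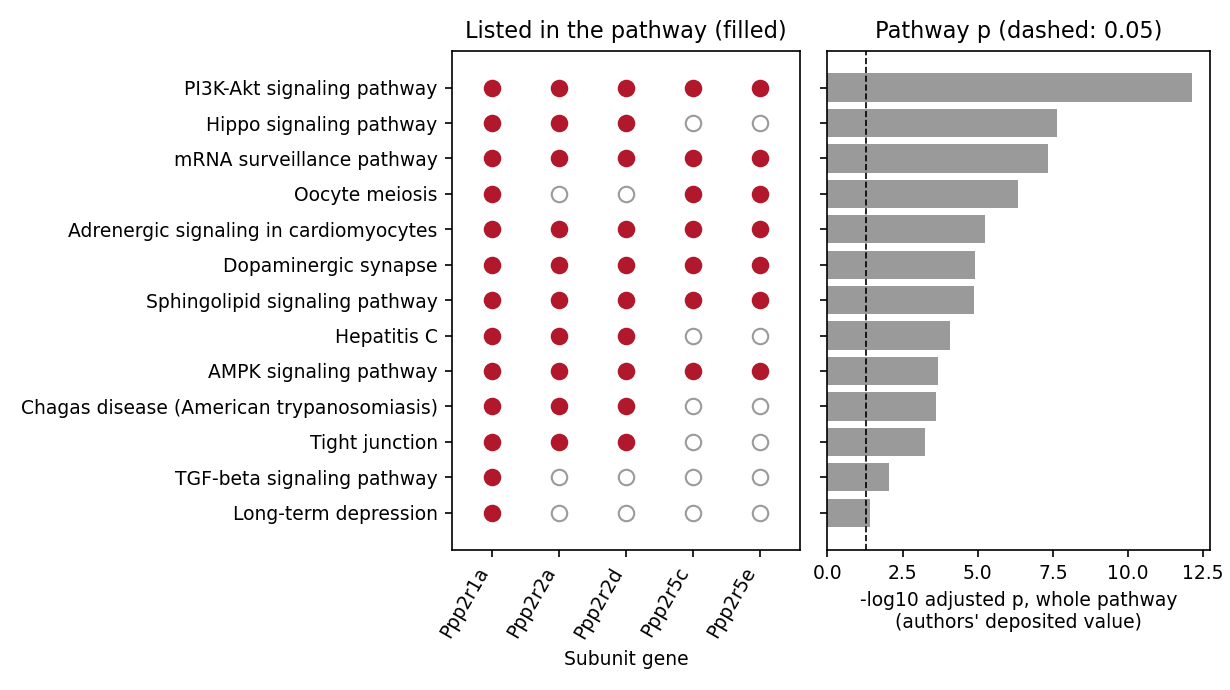
The 13 KEGG pathways that list a PP2A member (rows, by rank), with a filled circle where the subunit gene is listed (left) and the -log10 adjusted p of the whole pathway in the authors' deposited table (right; dashed line at 0.05). The first row, PI3K-Akt signaling, has all 5 subunits and an adjusted p of 7.73e-13, and the last, long-term depression, has Ppp2r1a and 0.0370.

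In the Gene Ontology (GO) table, 337 of 16568 terms listed at least 1 of the 6 members with a line. All 6 stood together in 54 terms, and 229 terms listed 1 member. The smallest term with all 6 was protein phosphatase type 2A complex, with 8 of 21 genes listed (38.1%), the other listed genes being Ppp2r3a and Ier5. The terms phosphatase complex and protein phosphatase regulator activity had 21 of 47 (44.7%) and 30 of 75 (40.0%), against 26.0% of the background for the distinct IDs of the whole table. The terms divided the subunits by role as the annotation does. Protein phosphatase activator activity listed the B56 genes Ppp2r5a, Ppp2r5c and Ppp2r5e (6 of 12 genes listed in all), and peptidyl-serine dephosphorylation listed Ppp2r1a, Ppp2r2a and Ppp2r2d (8 of 14, 57.1%).

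Ppp2r1a was in 210 terms, 117 of them with no other member, followed by Ppp2r5a with 160 (64 alone). Ppp2r5c had 109 terms (26 alone), Ppp2r2a 87 (18 alone, such as tau protein binding), Ppp2r5e 73 (0 alone) and Ppp2r2d 69 (4 alone, such as exit from mitosis). Terms named for apoptosis listed a member in 12 of 243 (Ppp2r1a). Terms named for meiosis, mitosis, the spindle, chromatids or oocytes did so in 33 of 279 (Ppp2r1a, Ppp2r2a and Ppp2r2d). A member was in 0 of 35 terms named for autophagy, 0 of 40 for insulin, 0 of 65 for glucose, 0 of 22 for glucocorticoid and 0 of 41 for Wnt. Over all terms 337 of 16568 listed a member, so a count of 0 in sets this small sets them apart from nothing. The authors' deposited table gives p = 1 for every GO term. Recomputed from the deposited gene numbers by a one-sided hypergeometric test with Benjamini-Hochberg adjustment, 0 of the 337 terms and 0% of all terms had an adjusted p below 0.05, with 0 of the 337 and 17 of all terms below 0.05 before adjustment. The deposited total sets the expected share at 48.3% of the background, whereas the distinct IDs make up 26.0%. Even the term cell had only 27.4% of its 17413 background genes listed. The 0 called terms thus follow largely from that total and are no result about the members. With the 5409 distinct IDs in place of the deposited total of 10022, the shares were 189 of 337 and 6.71% of all terms. Terms with a member are large (median 1009 background genes, against 11 over all terms), and of those with phosphatase or dephosphorylation in the name only dephosphorylation, with 145 of 456 genes, was called.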

How the data were processed

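m6A immunoprecipitation and input RNA of MIN6 cells with GR or control vector were sequenced, 1 library of each kind per arm. Per the submitters' processing notes, the tools were BWA 0.7.12 and HOMER 4.9.1 and the build mm10; the caller of differential peaks, its thresholds and its treatment of strand and of reads with several matches are not given in the sources used here. The authors deposited log2 fold changes per peak for autophagy genes (the sign was read from the title of that table, as GR over control), a gene table, and KEGG and GO tables with p-values, computed for KEGG by a hypergeometric or Fisher exact test with Benjamini and Hochberg correction per the file headers. The autophagy table separates some cells by spaces and was split on white space, with gene symbols carried down.

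Members were matched by Ensembl ID (all 10; 9217 of 9225 IDs of the gene table had a name), and chromosomes, gene bounds and promoters came from RefSeq GRCm38.p6, the assembly behind mm10; all 31 peaks lay inside their gene. Members without a promoter window there are Ppp2cb, Ppp2r2a and Ppp2r5e. KEGG p-values were recomputed with searched-for totals (7193 for the input, 38668 for the background), which gave back all 290 deposited p-values within 1%. Python 3.11.15, NumPy 2.4.6, pandas 2.3.3, SciPy 1.17.1 and Matplotlib 3.10.9 were used, and the calculations were tested on simulated data. Intervals are exact Clopper-Pearson intervals at 95% and cover counting error only.

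All members were named, with every gene of the wider lists that had a line (those of the striatin complex are counted and their names are not reported here), every KEGG pathway with a member, and GO terms taken from those with a member and either phosphatase in the name or 5 or more members; other GO terms and the absent genes were named after their values were seen. The members and lists were chosen with earlier results of these data known. The symbols Pabir1 and Pabir2 of the inhibitor list could not be matched.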

Additional observations from a re-analysis of the deposited data

How the results depend on the processing

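Counting only peaks whose log2 fold change is at or below -1 left 1 lower PP2A peak in place of 3, and counting genes gave 2. The median log2 fold change of the catalytic subunits, -0.95 over peaks, was -1.25 from the single strongest peak per gene and -1.03 from per-gene means; both settings follow from the last-exon peak of Ppp2ca weighing more when each gene counts once. GO terms with a member and a recomputed adjusted p below 0.05 numbered 0 with the deposited gene total and 189 with the distinct IDs as total. What the deposited total counts is not stated. It exceeds the 9225 IDs of the gene table, and the 0 follows largely from it, as given above. The 6 listed members were 6 when matched by deposited symbol and 8 with the autophagy table added, and the 21 related genes were 21 by symbol. The 13 KEGG pathways were 13 by raw p, 13 with each Entrez gene counted once and 12 without the members, the last setting chosen after seeing the data. No paired analysis was possible because each arm has 1 library of each kind and the files hold no values per library. The lack of values per library also leaves replicates, depth and input levels outside every result here.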

Other observations

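Listed genes lay beside the members that the gene table leaves out. Ppp2cb shares 219 bases at its far end with Ubxn8 (2 lines), Ppp2r5d shares 136 bases with Mea1 (7 lines), and the small nuclear RNA gene Gm25558 (6 lines) lies inside Ppp2r1b. Ppp2ca shares no base with a listed gene, and the nearest, Mir3061 (2 lines), begins 3997 bases after its end. Of the 4 members without a line, 3 thus overlapped a listed gene, against 0 of the 6 members with a line. Over all protein-coding genes the shares were 9.60% of the 16374 without a line and 12.9% of the 5526 with one, which is the opposite order. Within 5000 bases the members gave 4 of 4 without a line and 0 of 6 with one, where all protein-coding genes gave 22.6% and 35.4%. Within 10000 bases the members gave 4 of 4 and 1 of 6 (Ppp2r2a, with Bnip3l 5179 bases away), where all protein-coding genes gave 28.1% and 43.6%. The windows were chosen after the data were seen, the numbers are small, and whether peaks of a member were assigned to its neighbour was not tested. The fold peak of Ppp2cb lies at the end of the gene away from Ubxn8.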
